A study of Homo sapiens with 6 samples.

Results

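The transcripts examined here encode 10 RNA-binding proteins that attach to AU-rich or stem-loop elements of cytokine mRNAs and set how long those mRNAs last: ZFP36, ZFP36L1, ZFP36L2, ELAVL1, KHSRP, HNRNPD, TIA1, TIAL1, ZC3H12A and RC3H1. The genes were chosen by name for this known role, with earlier results of these data known. All 10 were found among the 31831 genes of the count table. All 10 also passed the filter on low counts, which left 17142 genes for testing. HK-2 is an immortalized epithelial line derived from the human proximal tubule, the kidney segment that takes up filtered glucose. The cells were kept in medium with 30 mM glucose for 72 h and carried either a control construct (HG-NC, 3 libraries) or a construct that overexpresses hnRNP-F (HG-OE, 3 libraries). Both groups shared the high glucose, and the labels speak of plasmids where the study's methods speak of lentivirus. The study reported that ZFP36 protein co-precipitated with hnRNP-F in HK-2 cells, and proposed that the pair acts jointly on expression and splicing. It saw no significant change of ZFP36 protein on overexpression.

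AU-rich elements are runs of the pentamer AUUUA in the 3′ UTR of short-lived mRNAs, such as those of cytokines, chemokines and growth regulators. ZFP36 proteins bind the nonamer UUAUUUAUU and bring in the enzymes that remove the poly(A) tail, while ELAVL1, known as HuR, binds similar stretches and protects the mRNA. KHSRP promotes decay, HNRNPD can do either, TIA1 and TIAL1 hold back translation, and ZC3H12A and RC3H1, known as Regnase-1 and Roquin-1, act on stem-loops. Much of the control of these proteins is by phosphorylation, localization and protein stability, which a count of mRNA does not measure.

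Of the 10 transcripts, 7 were lower in HG-OE, 1 was higher and 2 did not pass the test, and none changed 2-fold. ZFP36 itself, the least abundant of its family, was among those that did not pass, while its relatives ZFP36L1 and ZFP36L2 both fell. The 3 largest falls were those of HNRNPD, ZFP36L2 and ZFP36L1, and the only rise was that of ZC3H12A. A gene passed at an adjusted p under 0.05 in the quasi-likelihood test of edgeR, adjusted by Benjamini-Hochberg over all genes tested. By that rule 51.8% of all genes tested passed, 25.9% lower and 25.9% higher in HG-OE, and 5.82% passed with at least a 2-fold change (2.13% lower and 3.69% higher). The median log2 fold change was -0.21 over the 10 transcripts and 0.011 over all genes tested. In 8 of the 10 genes every HG-OE library lay below every HG-NC library, which held for 29.4% of all genes tested. These shares over all genes are not matched for count. By mean count, ZFP36L1, HNRNPD, KHSRP, ZC3H12A, TIAL1 and ELAVL1 lay at percentile 90.55 or higher of the genes tested, and ZFP36 at 37.0. Tested against a change of 1.2-fold rather than against no change, ZFP36L1, ZFP36L2 and HNRNPD still passed. The falls of ELAVL1, KHSRP, TIAL1 and RC3H1 and the rise of ZC3H12A did not.

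**Figure D1:**
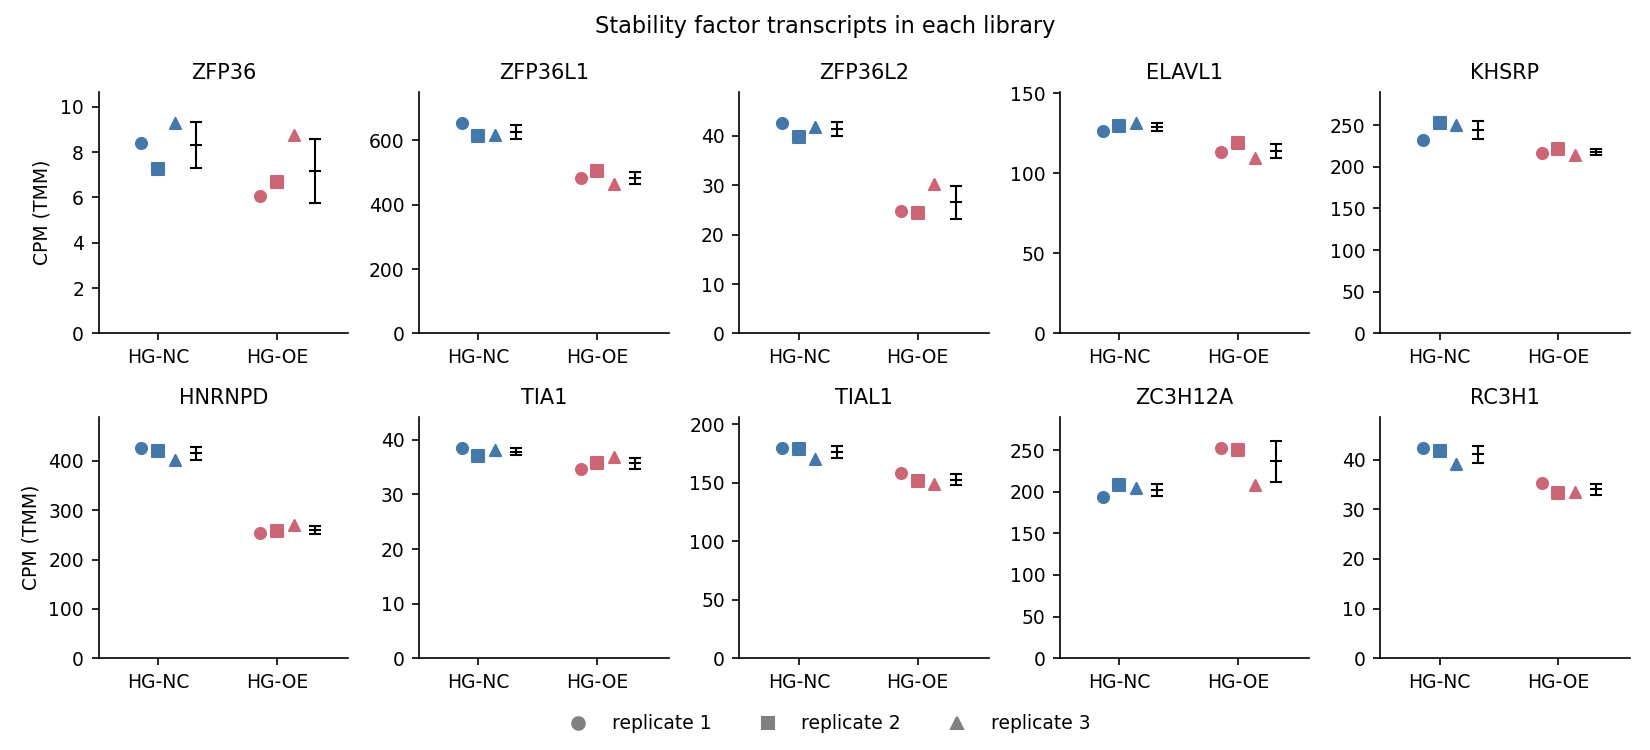
Each panel plots 1 gene, with CPM (counts scaled to library size with edgeR's TMM factors) on an axis from 0 and the 3 libraries of HG-NC and of HG-OE as points, beside the mean with an SD bar. HNRNPD, ZFP36L1 and ZFP36L2 show the clearest gaps between the groups, ZFP36 overlaps, and ZC3H12A is higher in HG-OE replicates 1 and 2 but not in replicate 3.

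Library totals were 25507595 to 29444841 read pairs. HNRNPF, the overexpressed gene, rose by 0.48 on the log2 scale (SE 0.0388). HG-OE replicate 3 stood apart from the other HG-OE libraries: 26423 genes had a count in it against 24342 to 25012 in the other five libraries, and 30 of the genes called at 2-fold had at least 80% of their HG-OE counts in it. Epithelial genes were well expressed (KRT8 37.9 to 126 FPKM, KRT18 59.6 to 141, KRT19 52.8 to 91.2) and so was the renal factor PAX8 (49.0 to 79.8 FPKM). Another renal factor, PAX2, was low at 0.28 to 0.4 FPKM. Defining genes of the mature proximal tubule were near 0 in every library, with LRP2, CUBN, AQP1 and SLC34A1 at 0.16 FPKM or less. PTPRC of leukocytes and PECAM1 of endothelium were near 0 too, at 0.06 FPKM or less. Other markers reached more: ANPEP 0.32, GGT1 0.29 and VWF of endothelium 0.1 FPKM at most, and CD68 of leukocytes 0.47 to 1.05 FPKM. At these low levels CD68 was lower and VWF higher in HG-OE, without overlap of the groups. KRT8 and KRT18 were higher and KRT19 and PAX8 were lower in HG-OE, each without overlap of the groups, and their part in the results below was not tested. A fall in these bulk libraries cannot tell fewer cells of a kind from less RNA per cell.

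ZFP36, also called tristetraprolin, is an early-response gene whose product recruits deadenylases to TNF and other cytokine mRNAs. The gene is found on chromosome 19, at 39406847 to 39409412 of GRCh38, the build used throughout. The 3 control libraries held 214, 196 and 259 of its reads, and the 3 HG-OE libraries held 176, 194 and 256. In CPM, the controls measured 8.42, 7.24 and 9.27 and the HG-OE libraries 6.07, 6.66 and 8.74, in the order of replicates 1 to 3. HG-OE replicates 1 and 2 lay under every control, and HG-OE replicate 3 lay between the controls, so the groups overlapped. The log2 fold change was -0.22 (SE 0.144, edgeR adjusted p = 0.230), and its 95% interval ran from -0.52 to 0.094. The data thus leave room for a fall to 0.695 times the control level and for a rise to 1.07 times. Without HG-OE replicate 3 the log2 fold change was -0.38 (edgeR adjusted p = 0.00726), and with any other library left out it did not pass.

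ZFP36L1, a paralog with the same zinc finger pair, was the most abundant of the 10 transcripts. It lies on chromosome 14 from 68787660 to 68796253. It measured 652, 613 and 616 CPM in HG-NC replicates 1 to 3 and 482, 503 and 465 CPM in HG-OE replicates 1 to 3. Every HG-OE library was below every control, and the spread within each group was small (CV 3.50% in HG-NC and 3.94% in HG-OE). This transcript fell by 22.9% (log2 fold change -0.38, SE 0.0406, edgeR adjusted p = 4.43e-06). The median log2 fold change of its 114 neighbours within 10 Mb was 0.079. All 16 alternative settings gave the same call, with log2 fold changes from -0.45 to -0.34.

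ZFP36L2, the third member of the family in these cells, lies on chromosome 2 from 43222402 to 43226606. It measured 42.5, 39.8 and 41.8 CPM in HG-NC replicates 1 to 3 and 24.8, 24.5 and 30.4 CPM in HG-OE replicates 1 to 3. All 3 HG-OE libraries were below the controls, and replicate 3 was the highest of them. The transcript fell by 35.8% (log2 fold change -0.64, SE 0.0758, edgeR adjusted p = 1.0e-05). Genes near it were also lower, with a median log2 fold change of -0.34 over 52 neighbours within 10 Mb. Taken relative to that median, the change of ZFP36L2 was -0.30 (edgeR adjusted p = 0.00485).

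The mRNAs of the ZFP36 family carry the element that their own proteins bind, as does that of ELAVL1. In the 3′ UTR of the canonical transcript (GENCODE release 44, GRCh38), the nonamer UUAUUUAUU occurred once in each of ZFP36, ZFP36L1, ZFP36L2 and ELAVL1 and in none of the other six. Of the 13595 protein-coding genes tested that have an annotated 3′ UTR, 9.53% hold it on the sense strand. The sites are shown because the same letters recur in the target mRNAs described further on. Capitals mark the nonamer, and each sequence runs 5′ to 3′ as RNA:
ZFP36, chr19:39409196-39409224, plus strand: uaugacgacuUUAUUUAUUcuaauaugau
ZFP36L1, chr14:68788077-68788105, minus strand: aacuguuggaUUAUUUAUUuuagaaauuc
ZFP36L2, chr2:43223448-43223476, minus strand: acuauuuaacUUAUUUAUUaucuugugaa
ELAVL1, chr19:7961828-7961856, minus strand: auuuauguauUUAUUUAUUgaagugugaa
A match of letters is a description and does not show that a protein binds there. The heptamer UAUUUAU, which the nonamer contains, occurred 3 times in each of the ZFP36 family transcripts, 5 times in ELAVL1, 2 times in RC3H1 and once each in TIA1 and TIAL1. The pentamer AUUUA, which both contain, was most frequent in RC3H1 (21 copies in 7637 bases) and had no copy in ZC3H12A, whose 3′ UTR of 766 bases had the highest GC content of the 10 (56.5%).

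Per transcript length, the ZFP36 family was dominated by ZFP36L1. The summed level of the 3 genes was 123 ± 4.02 FPKM in HG-NC and 92.5 ± 1.88 FPKM in HG-OE (mean ± SD, n = 3), with no overlap of the groups. ZFP36L1 made up 88.8% of the sum in HG-NC and 89.6% in HG-OE, and ZFP36 made up 3.07% and 3.47%. The share of ZFP36L2 went from 8.18 ± 0.158% to 6.89 ± 0.975%, again with no overlap, although HG-OE replicate 3 at 7.99% came close to the lowest control at 8.09%. The family stood at 7.40 ± 0.375 times the level of ELAVL1 in HG-NC and at 6.39 ± 0.110 times in HG-OE.

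ELAVL1 is the broadly expressed HuR, which stabilizes many AU-rich mRNAs. The gene lies on chromosome 19 from 7958573 to 8005659. It measured 126, 129 and 131 CPM in HG-NC replicates 1 to 3 and 113, 119 and 110 CPM in HG-OE replicates 1 to 3. The groups did not overlap, and the highest HG-OE library was replicate 2. The transcript fell by 11.7% (log2 fold change -0.18, SE 0.0419, edgeR adjusted p = 0.00264).

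KHSRP, a decay factor with KH domains, lies on the same chromosome from 6413102 to 6424811. It measured 232, 252 and 250 CPM in HG-NC and 217, 221 and 214 CPM in HG-OE, in replicates 1 to 3 of each. The lowest control, replicate 1, was still above every HG-OE library. The fall of KHSRP was 11.1% (log2 fold change -0.17, SE 0.0412, edgeR adjusted p = 0.00348).

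HNRNPD encodes AUF1, whose isoforms can hasten or slow the decay of AU-rich mRNAs. It lies on chromosome 4 from 82352498 to 82374503. Its levels were 426, 420 and 401 CPM in HG-NC replicates 1 to 3 and 253, 257 and 270 CPM in HG-OE replicates 1 to 3. The highest HG-OE library was far under the lowest control. The change was the largest of the 10 with all libraries, but ZFP36L2 fell more without HG-OE replicate 3 and ZFP36L1 fell more relative to neighbouring genes. It fell by 37.5% (log2 fold change -0.68, SE 0.0400, 95% interval -0.76 to -0.59, edgeR adjusted p = 1.80e-08). The median over its 72 neighbours within 10 Mb was -0.34, and relative to it the change was also -0.34 (edgeR adjusted p = 1.32e-05). The level of HNRNPD per length went from 3.22 ± 0.155 times that of ELAVL1 in HG-NC to 2.28 ± 0.151 times in HG-OE. Counts per gene do not separate the isoforms of HNRNPD.

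TIA1 and its paralog TIAL1 code for proteins that silence the translation of AU-rich mRNAs and gather in stress granules. TIA1, on chromosome 2 from 70209444 to 70248660, measured 38.5, 37.1 and 38.1 CPM in HG-NC and 34.6, 35.7 and 36.8 CPM in HG-OE, in replicates 1 to 3 of each. The groups did not overlap but lay close to each other. The log2 fold change of TIA1 was -0.085 (SE 0.0516, edgeR adjusted p = 0.189, 95% interval -0.20 to 0.026). Its 97 neighbours had a median of -0.28, and relative to that median TIA1 was 0.20 higher (edgeR adjusted p = 0.00661), so that the direction depends on this choice. TIAL1, on chromosome 10 from 119571802 to 119597029, measured 180, 179 and 170 CPM in the controls and 158, 151 and 149 CPM in HG-OE. Every HG-OE library of TIAL1 was below the controls, and it fell by 13.3% (log2 fold change -0.21, SE 0.0408, edgeR adjusted p = 8.04e-04). The median of its 73 neighbours was -0.14, and relative to it the change of TIAL1 no longer passed (-0.064, edgeR adjusted p = 0.225).

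ZC3H12A encodes Regnase-1, an endonuclease that cuts stem-loops in mRNAs such as IL6. The gene lies on chromosome 1 from 37474580 to 37484377. It measured 194, 208 and 204 CPM in HG-NC replicates 1 to 3 and 252, 250 and 208 CPM in HG-OE replicates 1 to 3. HG-OE replicates 1 and 2 were above all controls, but replicate 3 fell just under the highest control (208.13 against 208.33 CPM). The transcript rose by 17.1% (log2 fold change 0.23, SE 0.0625, edgeR adjusted p = 0.00751). Without HG-OE replicate 3 the log2 fold change was 0.31 (edgeR adjusted p = 1.21e-09), while limma on the deposited FPKM values, with all 6 libraries, gave 0.20 (adjusted p = 0.0712 at a pseudocount of 1).

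RC3H1 encodes Roquin-1, which binds stem-loops and recruits the deadenylase complex. It lies on chromosome 1 from 173931084 to 174022357. It measured 42.3, 41.8 and 39.2 CPM in HG-NC and 35.3, 33.4 and 33.5 CPM in HG-OE, in replicates 1 to 3 of each. Every HG-OE library was below every control, and the transcript fell by 17.1% (log2 fold change -0.27, SE 0.0544, edgeR adjusted p = 8.70e-04). Both stem-loop binders thus passed the test, in opposite directions.

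**Figure D2:**
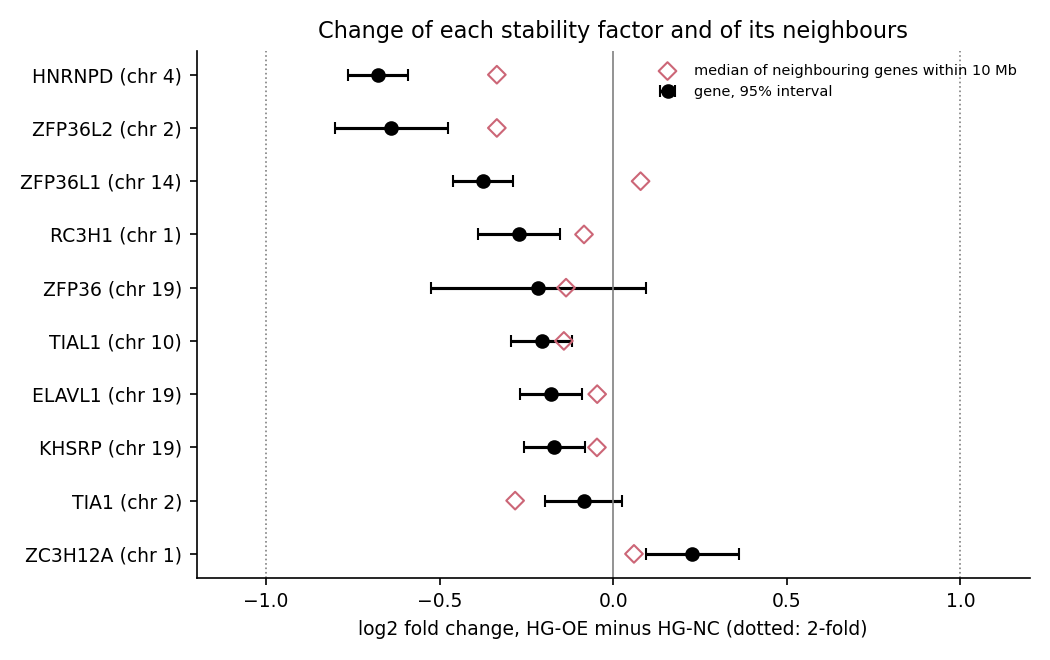
Black points show the log2 fold change of each gene (HG-OE minus HG-NC) with its 95% interval from edgeR, and open diamonds show the median log2 fold change of its well-counted neighbours within 10 Mb. ZFP36L1 fell while its neighbours had a median of 0.079, whereas the neighbours of HNRNPD and ZFP36L2 had a median of -0.34.

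For the 8 genes without overlap, the exact two-sided permutation test gave p = 0.1, which is the lowest value possible with 3 libraries per group, and it gave p = 0.3 for ZFP36 and p = 0.2 for ZC3H12A. Only ZFP36 and TIAL1 of the 10 share no span with another annotated gene. The spans of ELAVL1, HNRNPD and ZFP36L2 meet a gene on the opposite strand, and those of the other five meet one on the same strand. The strand setting of the counting is not given in the sources used here, so reads of these partners cannot be told apart from those of the genes above.

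Differences between related genes were tested on the ratio of their CPM values in each library. The ratio of ZFP36 to ZFP36L2 went from -2.26 ± 0.133 to -1.83 ± 0.108 on the log2 scale (mean ± SD, n = 3), a difference of 0.43, with no overlap of the groups (exact permutation test, p = 0.1, adjusted p = 0.25 over 5 pairs). The ratio of ZC3H12A to RC3H1 was higher by 0.49, also with no overlap (exact permutation test, p = 0.1, adjusted p = 0.25). For ZFP36 against ZFP36L1, ZFP36L1 against ZFP36L2 and TIA1 against TIAL1 the ratios moved by 0.16, 0.26 and 0.12, and the groups overlapped. With 3 libraries per group this exact test cannot pass for any pair, whatever the size of the difference, so its p-values do not tell whether paralogs responded differently.

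Levels per transcript length set the 10 genes in a clear order. In HG-NC, ZFP36L1 came first with 109 ± 3.58 FPKM (mean ± SD, n = 3), before ZC3H12A with 58.5 ± 2.24 FPKM and HNRNPD with 53.3 ± 1.45 FPKM. KHSRP followed with 42.4 ± 1.96 FPKM, then TIAL1 with 21.4 ± 0.533 FPKM and ELAVL1 with 16.6 ± 0.360 FPKM. The lower end held ZFP36L2 with 10.0 ± 0.352 FPKM, TIA1 with 5.13 ± 0.101 FPKM, ZFP36 with 3.76 ± 0.471 FPKM and RC3H1 with 3.14 ± 0.117 FPKM. No gene overlapped its neighbour in this order within HG-NC, though the lowest ZFP36 library (3.27 FPKM) and the highest RC3H1 library (3.23 FPKM) almost met. In HG-OE, HNRNPD at 33.0 ± 1.07 FPKM lay below KHSRP at 37.3 ± 0.551 FPKM, and the order was otherwise the same.

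**Figure D3:**
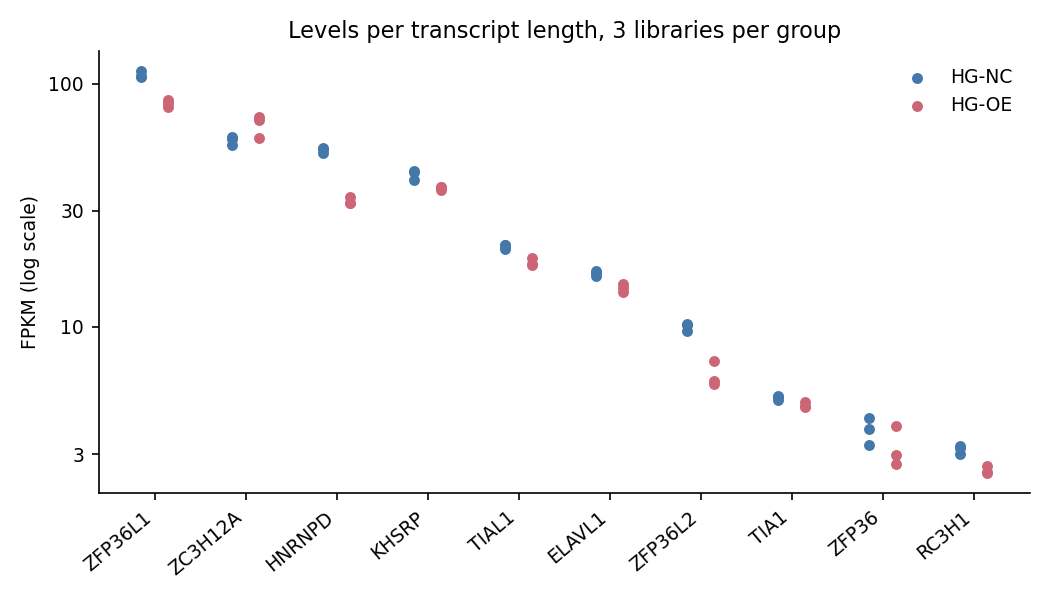
FPKM on a log axis is plotted for each gene, ordered by its mean in HG-NC, with the 3 libraries of each group as points. HNRNPD and KHSRP change places between the groups, and ZFP36 and RC3H1 hold the last places in both.

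Relatives and partners of these proteins moved both ways. Of 17 genes listed, 15 were tested, of which 7 were lower and 3 were higher (median log2 fold change -0.15), against 25.9% of all genes tested in each direction. ELAVL2, a neuronal relative of HuR, went from 7.94 ± 0.852 to 4.69 ± 0.462 CPM (log2 fold change -0.76, edgeR adjusted p = 2.14e-04). ZC3H12C, a relative of Regnase-1, went from 57.3 ± 0.427 to 34.4 ± 4.94 CPM (log2 fold change -0.74, edgeR adjusted p = 4.86e-06), opposite to ZC3H12A. HNRNPDL, the closest relative of HNRNPD, fell by 0.34 on the log2 scale, and relative to its neighbours it was at 0.0081. On the other side, ARID5A, which shields IL6 mRNA from Regnase-1, went from 9.83 ± 1.10 to 15.5 ± 0.747 CPM (log2 fold change 0.66, edgeR adjusted p = 6.31e-05). HNRNPAB rose by 0.54 and YBX1, an abundant mRNA-binding protein, by 0.36 on the log2 scale, and relative to its neighbours HNRNPAB no longer passed (0.067, edgeR adjusted p = 0.238).

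The enzymes that carry out the decay showed smaller and mixed changes. Of 40 such genes tested, 12 were lower and 9 were higher, close to the 25.9% of all genes tested in each direction. None changed 2-fold, and their median log2 fold change was -0.079. Without HG-NC replicate 1, only 5 passed as higher. Of the 11 genes of the CCR4-NOT deadenylase, 4 were lower and 4 higher. Of the 9 genes of decapping and decay from the 5′ end, 2 were higher and none was lower. Of the 12 exosome genes, 6 were lower and 1 was higher. Groups this small are read against the same 25.9%, and nothing particular to them was tested. BTG1, which stimulates deadenylation, had the largest fall, from 179 ± 6.90 to 111 ± 5.66 CPM (log2 fold change -0.69, edgeR adjusted p = 6.47e-08). The exosome subunits EXOSC9 and EXOSC6 fell by 0.41 and 0.39 on the log2 scale, and relative to its neighbours EXOSC9 no longer passed (-0.023, edgeR adjusted p = 0.779). CNOT6, PARN and CNOT8, all deadenylases, rose by 0.40, 0.30 and 0.28, but relative to their neighbours CNOT6 stood at -0.070 and CNOT8 at -0.081.

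Among the kinases and regulators that act on ZFP36 and its relatives, MAPKAPK3 stood out. This kinase works beside MAPKAPK2 downstream of p38, and the pair phosphorylates ZFP36. It measured 51.8, 52.7 and 51.5 CPM in HG-NC and 109, 116 and 110 CPM in HG-OE, in replicates 1 to 3 of each. The groups were far apart (log2 fold change 1.10, SE 0.0439, edgeR adjusted p = 6.16e-10), and it was the only gene of the 17 in this list called at 2-fold, as were 3.69% of all genes tested in that direction. Its neighbours on chromosome 3 were higher too, with a median of 0.53, and relative to them MAPKAPK3 was 0.57 higher (edgeR adjusted p = 2.89e-07). MAPKAPK2 itself had a log2 fold change of 0.047 (edgeR adjusted p = 0.420). MAPK11, the beta form of p38, rose by 0.57 and AKT1 by 0.28 on the log2 scale, and relative to their neighbours these were 0.25 and 0.078, where AKT1 no longer passed (edgeR adjusted p = 0.148). The 14-3-3 gene YWHAZ, whose protein binds phosphorylated ZFP36, fell by 0.33, MALT1, the protease that cleaves Regnase-1, by 0.27, and GIGYF2, which joins ZFP36 to translational repression, by 0.25. Relative to its neighbours YWHAZ was at -0.20, and GIGYF2 no longer passed (-0.073, edgeR adjusted p = 0.308). In all, 7 of the 17 were lower and 6 higher, against 25.9% of all genes tested in each direction. Their median log2 fold change was 0.047, and it turned to -0.073 relative to neighbouring genes.

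Most known target mRNAs were lower in HG-OE, some of them several-fold. Of 40 targets listed from general knowledge, 35 were tested, of which 22 were lower and 3 higher in HG-OE, against 25.9% of all genes tested in each direction. Of the falls, 11 reached 2-fold, as did 2.13% of all genes tested. They were TNF, IL6, CXCL8, CXCL2, CXCL3, CCL2, CCL20, CSF3, IL1A, BIRC3 and ICOSLG. CXCL8, CXCL2 and CXCL3 lie near each other on chromosome 4, where their neighbours had a median of -0.31. CSF3 had a mean of only 34.7 counts per library. The median log2 fold change of the targets was -0.57, and relative to neighbouring genes it was -0.50. The targets include cytokine genes already known to fall in these libraries, so the count is not independent evidence of direction. The falls ranged from -2.82 for CCL2 to -0.16 for IER3, and CXCL3, CXCL2, CXCL8, CCL20 and TNF followed CCL2 in size. The rises were those of CDKN1A (0.45), CCND1 (0.45) and DUSP1 (0.14), and relative to its neighbours DUSP1 was lower (-0.32, edgeR adjusted p = 2.94e-05).

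**Figure D4:**
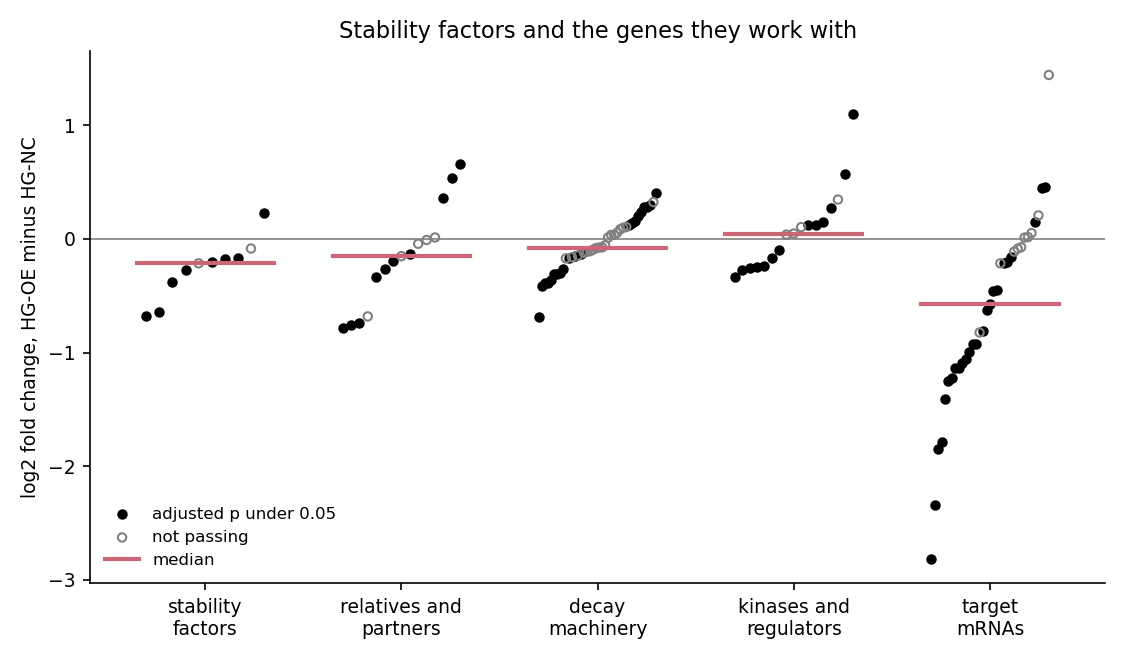
The log2 fold change (HG-OE minus HG-NC) of each gene tested is plotted by list, filled where it passed and open where it did not, with a bar at the median of the list. The medians run from -0.57 for the target mRNAs to 0.047 for the kinases and regulators, and MAPKAPK3 is the highest filled point at 1.10.

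Both kinds of targets, with and without the nonamer, were lower. Of the targets tested, 19 hold UUAUUUAUU in the canonical 3′ UTR, of which 11 were lower and 1 was higher (median log2 fold change -0.81). The 16 without it had 11 lower and 2 higher (median -0.52), among them CCL2, with a single AUUUA in its 3′ UTR, and IL6, with 6. CXCL8 carries the nonamer once, and TNF carries it 5 times in overlapping copies, of which the second is shown for comparison with the ZFP36 family sites above:
CXCL8, chr4:73742664-73742692, plus strand: auguaaaguaUUAUUUAUUugaaucuaca
TNF, chr6:31577997-31578025, plus strand: ugauuauuuaUUAUUUAUUuauuauuuau
CXCL8 went from 5281 ± 220 to 1535 ± 104 CPM, and TNF measured 21.0, 24.5 and 21.1 CPM in HG-NC and 9.65, 9.38 and 8.95 CPM in HG-OE. ZFP36, itself a target listed, holds the nonamer and did not pass.

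Across all protein-coding genes tested with a 3′ UTR, the share that was lower differed between genes with and without the nonamer. Of the 12299 genes without it, 28.8% were lower and 29.3% higher, and their median log2 fold change was 0.0085. Of the 1296 genes with it, 41.9% were lower (95% Wilson interval 39.2% to 44.6%, covering counting error only) and 19.0% higher, with a median of -0.13. The share lower was 42.6% with 1 copy and 39.7% with 2 or more copies (95% Wilson interval 34.4% to 45.2%). Genes with the nonamer also had longer 3′ UTRs (median 3112.5 against 1188 bases) with less GC (38.3% against 43.0%). The share lower followed GC content without the nonamer too. Among genes without it, 42.2% were lower in the quartile of lowest 3′ UTR GC content and 17.6% in the highest. Among genes with it, these shares were 53.3% and 27.0%. What the nonamer adds apart from GC content and length was not tested. The pentamer alone set genes apart as well: of the 3760 genes without any AUUUA, 17.7% were lower and 38.5% higher, and their median 3′ UTR was 382 bases.

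**Figure D5:**
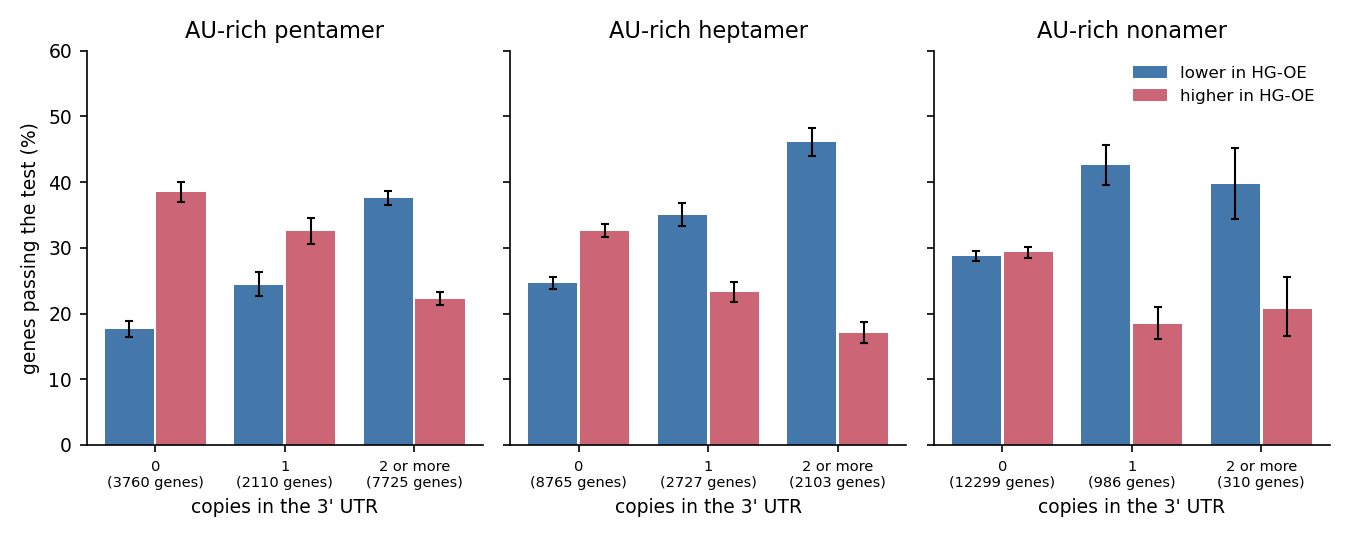
Bars give the percent of genes that passed as lower or higher in HG-OE, by the copies of the pentamer AUUUA, heptamer UAUUUAU or nonamer UUAUUUAUU in the canonical 3′ UTR, with 95% Wilson intervals. The share lower goes up from 24.6% with no heptamer to 46.1% with 2 or more, and for the nonamer it is 42.6% with 1 copy and 39.7% with 2 or more.

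The difference between the classes had the same sign in each HG-OE library. Relative to the mean of the controls, the median of genes with the nonamer minus that of genes without it was -0.11, -0.13 and -0.14 on the log2 scale in HG-OE replicates 1, 2 and 3. In the controls, each taken relative to the mean of the other controls, it was 0.012, -0.0026 and -0.0070. These values centre near 0 by construction, since the controls are also the reference that the HG-OE values share. Within quartiles of 3′ UTR length it was between -0.18 and -0.072, smallest for the longest 3′ UTRs, where 730 of the 1296 genes lie. Within quartiles of GC content it was between -0.12 and -0.016. Genes of 1 library are not independent replicates, so these medians are given without a test.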

How the data were processed

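The authors trimmed reads of directional poly(A) libraries, aligned them to GRCh38 with HISAT2 and deposited whole-number counts of uniquely mapped reads per gene, without normalization. FPKM values, which the authors computed and deposited as well, are rounded to 2 decimals. Whether the ComBat_seq correction named in the methods entered the counts is not stated. Groups came from the labels, glucose and time from the methods. The methods speak of parallel wells and of biological replicates, and the labels do not say how libraries relate to wells, so p-values measure the spread between these libraries.

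Counts were fitted with edgeR 4.0.16 (TMM, default filter, quasi-likelihood test, Benjamini-Hochberg adjustment over 17142 genes) in R 4.3.3. The biological coefficient of variation was 0.0683. A count of 0 would allow up to 3 counts, and the genes described had more. The steps were tested on simulated data.

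Alternatives were DESeq2 1.42.0 and its size factors, other filters, the replicate block, each library left out, limma 3.58.1 with a trend on log2(FPKM + 1) or log2(FPKM + 0.1), glmTreat against a 1.2-fold change, and removal of the median log2 fold change of well-counted neighbours (mean of at least 100 counts) within 10 Mb. Quartiles of 3′ UTR length and GC content were added after seeing the data. Motifs were counted on the sense strand with overlaps.

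The genes and lists were chosen with earlier results of these data known. Beside the 10 genes and HNRNPF, those named are genes called at 2-fold and the largest passing changes of each list (up to 3 rises and 3 falls, for targets 4 and 6) without overlap and with at least 100 counts. IER3, IL6 and MAPKAPK2 were named after their values were seen. The mannitol libraries were not analysed here.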

Additional observations from a re-analysis of the deposited data

How the results depend on the processing

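The 7 falls, the rise of ZC3H12A and the absence of 2-fold changes held with DESeq2, its size factors, other count filters and each library left out, and ZFP36 fell as well without HG-OE replicate 3. Replicate numbers did not pair the libraries (correlations of same-numbered deviations -0.0077, 0.034 and 0.0053), and with the replicate block 7 genes were lower and 1 higher, as without it, and 8849 genes passed against 8887. Against a 1.2-fold change, 3 of the 10 were lower and 0 higher, partners had 4 lower, the decay machinery 5 lower and 1 higher, and the kinases and regulators 1 lower and 2 higher. With limma on log2(FPKM + 1), log2(FPKM + 0.1) or no FPKM filter, 0 of the 10 were higher. The decay machinery had 5 higher with log2(FPKM + 1), with and without the filter, and 5 to 7 with each library left out, the 5 without HG-NC replicate 1. Without a count filter, 5 targets were higher. With the neighbours' median removed, 2 of the 10 were higher (ZC3H12A and TIA1) and 2 of the decay machinery. With it removed, the sign changed for TIA1 (0.20), CNOT6 (-0.070), CNOT8 (-0.081), DUSP1 (-0.32) and HNRNPDL (0.0081). With the changed sign only TIA1 (edgeR adjusted p = 0.00661) and DUSP1 (edgeR adjusted p = 2.94e-05) passed. CNOT6, CNOT8 and HNRNPDL did not (edgeR adjusted p = 0.380, 0.195 and 0.878). The median of the kinases and regulators changed sign too (-0.073), and the cause was not tested.

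The share of genes lower was 34.8% with AUUUA, against 17.7% without it and 24.6% without UAUUUAU. Leaving out a library gave 37.1% to 44.1% with the nonamer and 24.7% to 30.4% without it. The difference of medians was -0.14, with AUUUA -0.17, in the shortest and longest quartiles of 3′ UTR length -0.18 and -0.072, and in the quartiles of GC content -0.11, -0.12, -0.016 and -0.11. ZFP36 had 176 to 259 counts per library, and its CPM had a CV of 12.2% in HG-NC and 19.6% in HG-OE. What depth and the spread between libraries each add to its result was not tested.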
